A study of Mus musculus with 8 samples.

Results

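Arginine is the shared substrate of enzymes that compete for it, and 8 genes of this pathway are described here across primary mammary tumours and spine metastases of the 4T1.2 model. They were Arg1, Arg2, Nos2, Odc1, Ass1, Asl, Slc7a2 and Sat1, 8 of 18193 genes measured by a probe set of their own, and all 14 probe sets assigned to these genes alone were taken. Arg1 was picked because its signal fell steeply from primary tumour to metastasis, so its values are a description and carry no test. The other 7 were listed for their place in the pathway. A further probe set, brighter than the one used for Ass1 but assigned to Ass1 together with another gene, was left out of the counts and tests.

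Arginases split arginine into ornithine and urea. Nitric oxide synthases oxidise it to citrulline and nitric oxide, and citrulline is turned back into arginine by the argininosuccinate enzymes. Ornithine feeds the polyamines, which dividing cells need. In tumours, myeloid cells are a well known source of arginase, and arginine depleted by it restrains T cells.

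4T1.2 is a clone of the mouse mammary carcinoma line 4T1 which, grown in the mammary gland of syngeneic mice, forms bone metastases on its own. The primary tumour group held 4 samples of tumour epithelial cells from the mammary gland of Balb/c mice, and the bone metastasis group held 4 samples from matched spine metastases of the same strain. Per the design text tumour and metastasis were matched within a mouse, so the study covered 4 mice. Which samples share a mouse was inferred from the replicate numbers in the sample titles, and mice 1 to 4 below are these numbers. The comparison asked how tumour cells in bone differ from their matched primary tumour. No treatment, transgene or deletion is named for either group. The sources used here give neither the age of the mice nor the way the cells were isolated.

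Each sample was hybridised to a one-colour array, and the values are log2 signals, 1 per probe set and array, on which a difference of 1 is a doubling. Log2 signals of different probe sets are not comparable with each other, so levels are compared only between samples. A gene was called when its limma p, adjusted by Benjamini-Hochberg over all genes, was below 0.05. Where a gene had several probe sets, the one with the highest mean stood for it, and the others were tested among all 34945 probe sets with 1 gene symbol.

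Control probe sets and marker genes of other cell types also parted the groups. From its 3' to its 5' control probe set, actin lost 1.08 to 1.90 log2 units on primary arrays and 4.55 to 6.18 on metastasis arrays ( exact permutation p = 0.0286, adjusted p = 0.0286 over the actin and Gapdh controls, two-sided, the smallest p that 4 against 4 arrays allow). The gap in this drop was 2.83 in mice 1 and 2 and 4.84 in mice 3 and 4. Of 9 macrophage markers 7 fell, with a summed linear signal of 36050 to 56910 on primary arrays and of 8383 to 25410 on metastasis arrays. Csf1r and C1qb, the 2 macrophage markers that were not called, made up 34.8% to 44.3% of this sum on primary and 51.5% to 82.8% on metastasis arrays, and their other probe sets had folds from -2.61 to -1.63 and from -3.96 to -0.23. The 7 markers that fell summed to 20080 to 36880 on primary and to 3024 to 12320 on metastasis arrays. Granulocyte markers rose in 7 of 11 cases (1210 to 2229 against 20000 to 39070), B lineage markers in 6 of 6 and nerve markers in 7 of 7. Fibroblast markers rose in 1 and fell in 1 of 6, cartilage and bone markers rose in 3 and fell in 1 of 5, and none of the 6 erythroid and 6 endothelial markers was called. The shares over all genes were 12.1% lower and 9.72% higher. Keratins checked the labelled cell type. Krt8, a keratin of simple epithelia, lay between 13.07 and 13.32 in primary tumours, at 12.39 and 12.97 in metastasis replicates 2 and 4, and at 7.34 and 9.80 in metastasis replicates 1 and 3, which stood apart in this way. Krt18, Krt19, Cldn3 and, barely, Krt5 were also lower in metastasis replicates 1 and 3 than in 2 and 4. Krt14, Epcam, Cdh1, Cldn7 and Esrp1 did not part these replicates in this way. Of 10 epithelial markers, Krt19 alone was called, lower, and their summed signal was 13420 to 14530 on primary and 954.6 to 13130 on metastasis arrays. On primary arrays this sum is mostly Krt8 and Krt18 (mean log2 signals 13.20 and 11.60, against 8.92 for Epcam), so it largely repeats these keratins. No marker is at 0 on this scale. The part of the control drop and of these markers in the results below was not tested. In such bulk samples fewer cells of a type and less RNA per cell cannot be told apart.

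Of the 7 genes other than Arg1, Odc1, Asl, Slc7a2 and Sat1 were lower in metastases, and Arg2, Nos2 and Ass1 did not pass the test. None was called higher by limma in the gene-level fit (0, and 0 at an unadjusted p under 0.05). Over all genes 12.1% were called lower and 9.72% higher. The median log2 fold of the 7 genes was -1.68, against 0.09 over all genes. By probe set, 5 of 13 were lower and 0 higher, against 11.9% and 8.72% of all probe sets. In that fit the Ass1 probe set was higher at an unadjusted limma p of 0.0482, which did not pass (adjusted p = 0.139). Without metastasis replicates 1 and 3, chosen for their low Krt8 after the data were seen, 2 of the 7 genes (Odc1 and Asl) and 3 of the 13 probe sets were called lower. This fit had fewer arrays, and the share of all genes it called is not given here. The folds of Slc7a2 and Sat1 hardly moved, at -1.66 (SE 0.62) and -3.93 (SE 1.21). With all arrays they were -1.68 (SE 0.45) and -3.86 (SE 0.86).

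**Figure D1:**
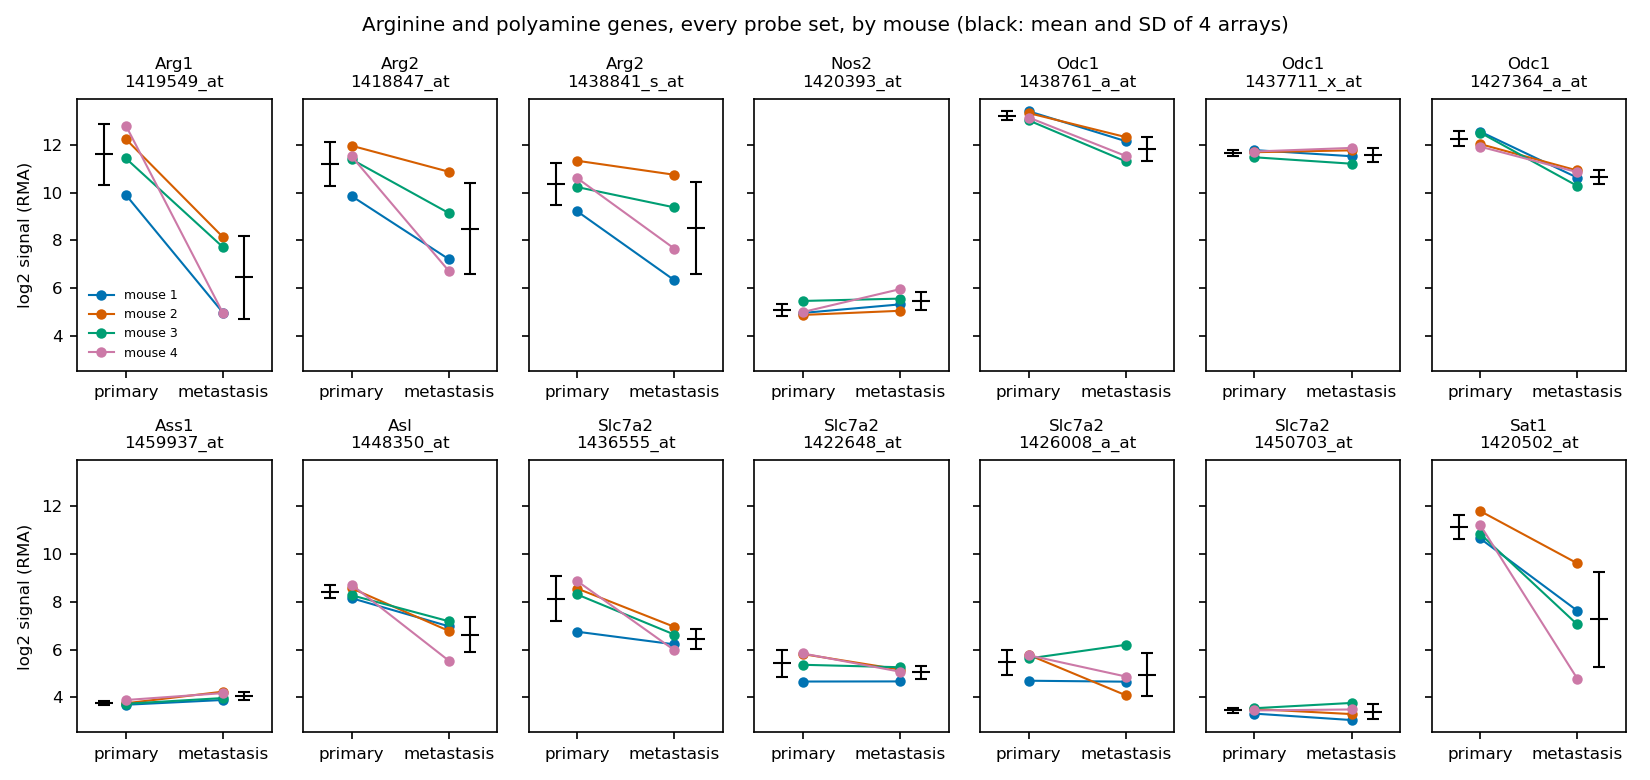
Log2 signal (RMA, y axis) of each of the 14 probe sets in primary tumour and bone metastasis. Each coloured line joins the 2 samples of 1 replicate number, taken as 1 mouse, and the black marks give the mean and SD of 4 arrays. The lines of Arg1, Sat1, Asl and 2 Odc1 probe sets fall in all 4 mice with no overlap between the groups, while those of Nos2 and Ass1 lie low in both groups.

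Arg1 encodes the cytosolic arginase of the urea cycle, which macrophages and myeloid suppressor cells also make. Its only probe set (1419549_at) had log2 signals of 9.90, 12.24, 11.43 and 12.81 in primary replicates 1 to 4 and of 4.97, 8.13, 7.71 and 4.95 in metastasis replicates 1 to 4. All metastases lay below all primary tumours, and replicates 1 and 4 of the metastases lay under their array medians of 5.23 and 5.42, where a signal is close to background. The group means were 11.59 ± 1.26 and 6.44 ± 1.72 (SD, n = 4 each), a log2 difference of -5.15 (SE 0.90), or 35.6-fold, which is not exact since it rests on 2 metastasis values near background. Within mice the difference was -4.93, -4.10, -3.72 and -7.85. It was thus smallest in mouse 3 and largest in mouse 4, with means of -4.52 in mice 1 and 2 and -5.79 in mice 3 and 4. Without metastasis replicates 1 and 3 it was -5.05. With the actin drop of each array as a covariate it was -1.34 with an SE of 3.20, and this covariate, which does not overlap between the groups, left 0 genes past the threshold by limma (2470 at an unadjusted p under 0.05) and raised the median SE over genes from 0.23 to 0.74. Primary replicate 1 was the lowest of its group by more than 1.5 log2 units.

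Arg2 encodes the mitochondrial arginase, which is found in many tissues outside the liver. Its brighter probe set (1418847_at) read 9.85, 11.96, 11.39 and 11.52 in primary replicates 1 to 4 and 7.21, 10.87, 9.14 and 6.72 in metastasis replicates 1 to 4. The metastasis of each mouse lay below its own primary tumour, but metastasis replicate 2 lay above primary replicate 1, so the groups overlapped. The means were 11.18 ± 0.92 and 8.49 ± 1.90 (SD, n = 4 each), a log2 fold of -2.69 with an SE of 0.89 (limma adjusted p = 0.0616). With mouse as a block the same fold passed the threshold (limma adjusted p = 0.0274), and it also passed without metastasis replicate 2 (-3.49, adjusted p = 0.00861) or without mouse 2 (-3.23, adjusted p = 0.0269). Scaling to the 75th percentile and the filter on dim genes gave the call too (limma adjusted p = 0.0464 and 0.0400). Arg2's second probe set (1438841_s_at) had a fold of -1.82 with an SE of 0.90 (limma adjusted p = 0.186 over all probe sets). It read 10.74 in metastasis replicate 2 and 9.21 in primary replicate 1. Mouse 2 had the highest signal of its group in both tumours and on both Arg2 probe sets.

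Nos2, the inducible nitric oxide synthase that activated macrophages use against microbes and tumour cells, stayed dim. Its only probe set (1420393_at) read 4.96, 4.87, 5.46 and 4.9976 in primary replicates 1 to 4 and 5.32, 5.05, 5.56 and 5.95 in metastasis replicates 1 to 4. On 4 of the 8 arrays it lay under the array median, and the groups overlapped. The log2 fold was 0.40 with an SE of 0.23, higher in 4 of 4 mice (limma adjusted p = 0.241), so a difference was not detectable here. At this brightness a low signal does not separate little Nos2 RNA from none.

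Ass1 and Asl encode argininosuccinate synthase and lyase, which rebuild arginine from citrulline. Asl (1448350_at) read 8.15, 8.57, 8.27 and 8.72 in primary replicates 1 to 4 and 6.98, 6.78, 7.19 and 5.54 in metastasis replicates 1 to 4. The groups did not overlap, and replicate 4 was the lowest metastasis. Asl fell from 8.43 ± 0.26 to 6.62 ± 0.74 (SD, n = 4 each), a log2 fold of -1.81 with an SE of 0.35, or 3.50-fold (limma adjusted p = 0.00824), and the call held without any 1 array or mouse.

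Ass1 gave another picture on its only probe set of its own (1459937_at). The signal read 3.69, 3.75, 3.73 and 3.89 in primary replicates 1 to 4 and 3.89, 4.24, 3.97 and 4.18 in metastasis replicates 1 to 4. The metastases lay just above the primary tumours, and all 8 values lay under the array medians. The log2 fold was 0.30 with an SE of 0.14 and did not pass the test (limma adjusted p = 0.154). The brighter probe set that Ass1 shares with another gene (1416239_at) read 7.15, 5.59, 5.99 and 6.79 in primary replicates 1 to 4 and 5.66, 5.32, 5.80 and 5.36 in metastasis replicates 1 to 4. It was lower in metastases of 4 of 4 mice with overlapping groups, the opposite direction, and it cannot be assigned to either gene, so the level of Ass1 is not settled by these arrays. Of the 7 genes other than Arg1, 3 were lower and 1, Ass1, was higher with no overlap between groups on the brightest probe set, against 14.2% and 15.2% of all genes.

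Slc7a2 encodes CAT2, a cationic amino acid transporter that carries arginine into macrophages and other cells. Its brightest probe set (1436555_at) read 6.75, 8.55, 8.31 and 8.86 in primary replicates 1 to 4 and 6.22, 6.95, 6.63 and 5.97 in metastasis replicates 1 to 4. Primary replicate 1 lay within the range of the metastases, and the other primary tumours lay above it. The fold was -1.68 with an SE of 0.45 on the log2 scale (limma adjusted p = 0.0296). This call was lost without primary replicate 2, 3 or 4 (limma adjusted p = 0.0825, 0.0814 and 0.0854), without metastasis replicate 1, 3 or 4 (0.0521, 0.0591 and 0.0699), without mouse 2, 3 or 4 (0.0737, 0.142 and 0.163) and without metastasis replicates 1 and 3 together (0.115). The 3 other probe sets of Slc7a2 (1422648_at, 1426008_a_at and 1450703_at) were dimmer, with folds of -0.38, -0.51 and -0.05 that did not pass the test (limma adjusted p = 0.359, 0.439 and 0.840). The mean of all 4 probe sets gave -0.66 (limma adjusted p = 0.124), so the call rests on the probe set chosen.

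Odc1 encodes ornithine decarboxylase, which makes putrescine from ornithine and sets the pace of polyamine synthesis. On its brightest probe set (1438761_a_at) it read 13.40, 13.33, 13.02 and 13.14 in primary replicates 1 to 4 and 12.15, 12.32, 11.30 and 11.53 in metastasis replicates 1 to 4. Odc1 varied little among primary tumours, and every metastasis was lower. Odc1 fell by 1.40 (SE 0.24) on the log2 scale, or 2.63-fold (limma adjusted p = 0.00576), and the call held without any 1 array or mouse. Another Odc1 probe set (1427364_a_at) also fell, by 1.58 with an SE of 0.21 (limma adjusted p = 0.00219 over all probe sets). The remaining one (1437711_x_at) read 11.78, 11.69, 11.48 and 11.72 in primary replicates 1 to 4 and 11.52, 11.77, 11.21 and 11.87 in metastasis replicates 1 to 4. These values overlapped, with a log2 fold of -0.07 and an SE of 0.17 (limma adjusted p = 0.780). That fold turned to 0.13 with each array set to its 75th percentile, to 0.046 after quantile normalization, and to 0.054 without metastasis replicate 3. The places of the 3 probe sets in the Odc1 transcript were not used here.

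Sat1 encodes spermidine/spermine acetyltransferase, which starts polyamine breakdown and so works against Odc1. Its probe set (1420502_at) read 10.65, 11.80, 10.85 and 11.22 in primary replicates 1 to 4 and 7.63, 9.61, 7.05 and 4.79 in metastasis replicates 1 to 4. The groups did not overlap, and the metastases spread over 4.83 log2 units, against 1.15 in primary tumours. Sat1 fell from 11.13 ± 0.51 to 7.27 ± 1.99 (SD, n = 4 each), by a log2 fold of -3.86 with an SE of 0.86, or 14.5-fold (limma adjusted p = 0.0150). Metastasis replicate 4 lay under its array median of 5.42, so this fold is not exact. Within mice 1 to 4 the difference was -3.02, -2.19, -3.79 and -6.43. The call was lost without mouse 3 (-3.88, limma adjusted p = 0.0971) and without metastasis replicates 1 and 3 (-3.93, limma adjusted p = 0.0750), with hardly any change of the fold.

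**Figure D2:**
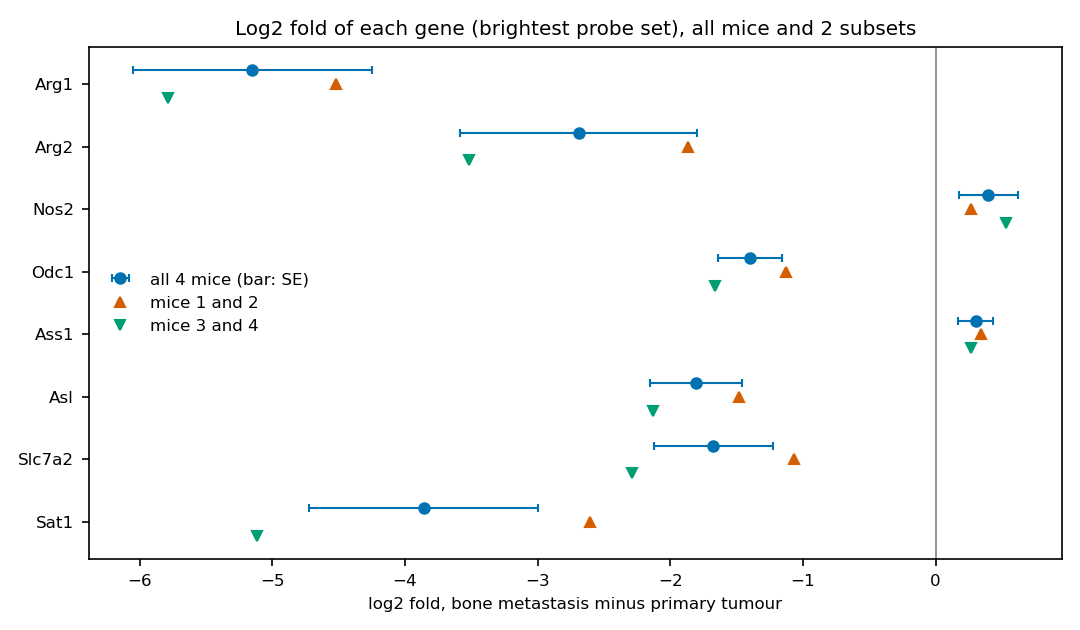
Log2 fold, bone metastasis minus primary tumour (x axis), of the brightest probe set of each gene, for all 4 mice with the SE as a bar (circles), for mice 1 and 2 (triangles up) and for mice 3 and 4 (triangles down). The pair means of the 6 genes with a negative fold are further from 0 in mice 3 and 4, as for Sat1 at -5.11 against -2.61, but mouse 3 alone had the smallest fall of Arg1 (-3.72) and of Asl (-1.09).

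Each of the 6 genes with a negative fold was lower in 4 of 4 mice, so the negative means of both pairs follow from this and add no support. Arg2 stood at -1.86 and -3.52, Odc1 at -1.13 and -1.66, Asl at -1.48 and -2.13, and Slc7a2 at -1.07 and -2.29 in mice 1 and 2 and in mice 3 and 4. Single mice did not follow the pairs: the difference in Asl was -1.18, -1.78, -1.09 and -3.18 in mice 1 to 4, and that in Arg2 was -2.64, -1.09, -2.25 and -4.80. Mouse 4 had the widest difference for these genes except Odc1, where mouse 3 did (-1.72 against -1.61). With the actin drop as a covariate the folds of Arg2, Asl, Slc7a2 and Sat1 turned positive (2.26, 0.08, 0.64 and 2.96, with SEs of 2.94, 1.15, 1.51 and 2.22). That of Nos2 turned negative (-0.65, SE 0.78), and no member was called (limma adjusted p from 0.517 to 0.976). With SEs this wide the signs are not settled.

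Odc1 and Sat1, the 2 polyamine genes, both fell, and their promoter windows are shown for reference. RefSeq (GRCm38.p6) gave such a window, 250 bases before to 50 after the start, for 3 of the 8 genes. The windows lie at chr12:17544623-17544922 on the plus strand for Odc1 and at chrX:155216400-155216699 on the minus strand for Sat1. Capitals mark the GC box GGGCGG, searched on both strands, a motif bound by Sp1 family factors.
Odc1: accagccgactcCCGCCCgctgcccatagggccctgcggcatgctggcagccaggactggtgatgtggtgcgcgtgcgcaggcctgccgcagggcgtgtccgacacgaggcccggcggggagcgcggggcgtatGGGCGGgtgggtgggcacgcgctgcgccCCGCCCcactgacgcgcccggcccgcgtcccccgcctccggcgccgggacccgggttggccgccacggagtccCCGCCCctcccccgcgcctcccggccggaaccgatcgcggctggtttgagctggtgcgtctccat
Sat1: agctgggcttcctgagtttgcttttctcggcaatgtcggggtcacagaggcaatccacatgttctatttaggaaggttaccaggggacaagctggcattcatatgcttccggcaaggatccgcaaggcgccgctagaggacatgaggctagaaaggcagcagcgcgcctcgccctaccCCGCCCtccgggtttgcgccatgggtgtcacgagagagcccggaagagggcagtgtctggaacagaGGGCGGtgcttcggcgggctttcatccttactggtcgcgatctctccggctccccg
The GC box occurred 4 times in the Odc1 window and 2 times in the Sat1 window, and 35.7% of all 32851 promoter windows of this length held at least 1. The E-box CACGTG and the TATA box TATAAA, present in 7.15% and 13.6% of all windows, had no match in either. A match describes the letters of the window and was not tied to the measured signals.

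Most other genes of the pathway missed the threshold. Of 37 measured genes out of 42 listed, 7 fell, 4 rose and 26 missed the threshold, with a median log2 fold of 0.04. The share called lower was 18.9% against 12.1% of all genes, and the share called higher, 10.8%, was close to the 9.72% of all genes. With mouse as a block 6 were lower and 1, Aldh18a1, was higher, while 3284 of all genes passed in either direction, against 3975 without the block.

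Gatm, which takes arginine into creatine synthesis, fell most, from 9.24 ± 0.99 to 5.48 ± 0.58 (SD, n = 4 each), a log2 fold of -3.76 with an SE of 0.49 (limma adjusted p = 0.00185). Its metastasis replicate 4 (4.65) lay under its array median of 5.42, and the others (5.51, 5.79 and 5.96) lay little above theirs, so this fold is not exact. Among ornithine genes, Oat, the aminotransferase that links ornithine with glutamate and proline, changed by -1.85 (SE 0.40), and Aldh18a1, which starts proline and ornithine synthesis from glutamate, rose by 2.32 (SE 0.29, limma adjusted p = 0.00160). The 4 other Aldh18a1 probe sets ran from -0.67 to 1.72, and the mean of its probe sets rose by 0.90 (limma adjusted p = 0.00774), so the size of its rise depends on the probe set. Cps1 and Otc, the mitochondrial steps of the urea cycle, and Nags, a mitochondrial enzyme beside it, had folds of 0.12, 0.20 and 0.29. None passed the test. Otc and Nags lay under the array median on every array, close to background, and Cps1 lay near it.

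Among transporters, Slc7a7, which exports arginine with its partner Slc3a2, fell by 1.66 (SE 0.27, limma adjusted p = 0.00405), and Slc7a3, the cationic transporter CAT3, rose by 0.63 (SE 0.15, limma adjusted p = 0.0183) from a primary mean of 4.83, under the array median. The other Slc7a7 probe set had a fold of -0.77. Slc7a1, the widely expressed arginine carrier CAT1, had a fold of 0.18 (limma adjusted p = 0.607). Among nitric oxide genes, Gch1, which makes the cofactor tetrahydrobiopterin, changed by -1.48 (SE 0.46, other probe set -0.95), and Ddah2, which clears an inhibitor of nitric oxide synthases, by -1.26 (SE 0.31). Nos1 and Nos3, the neuronal and endothelial synthases, were higher by 0.62 (SE 0.19) and 0.67 (SE 0.17). The mean of the Nos1 probe sets was 0.30 and was not called (limma adjusted p = 0.192), and its 3 other probe sets ran from 0.02 to 0.39. Nos1 also missed the threshold with the filter on dim genes (limma adjusted p = 0.0525). The rises of Slc7a3, Nos3 and Nos1 and the fall of Ddah2 did not pass with mouse as a block (limma adjusted p = 0.0615, 0.0736, 0.0794 and 0.0503).

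In the polyamine branch, Oaz2, an antizyme that sends ornithine decarboxylase to degradation, changed by -1.39 (SE 0.38), with its 2 other probe sets at -0.76 and 0.59, and Smox, which oxidises spermine, by -1.47 (SE 0.42, other probe set -0.91). Srm, the spermidine synthase, had a fold of 0.04 (SE 0.23), and Oaz1 one of 0.42 (SE 0.14), neither past the test (limma adjusted p = 0.922 and 0.0675). Of the 11 called genes, Gatm, Aldh18a1 and Slc7a7 kept the call without any 1 array or mouse, and the other 8 lost it at least once. After quantile normalization Nos1, Gch1, Ddah2, Oaz2 and Smox, 5 of the 11, were not called (limma adjusted p = 0.0579, 0.0864, 0.0780, 0.0607 and 0.0843), and nor were Gch1, Oaz2 and Smox by the mean of their probe sets (0.0704, 0.0913 and 0.0764). Nos1, Gch1 and Smox each lost it in 6 of the 8 fits without 1 array.

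**Figure D3:**
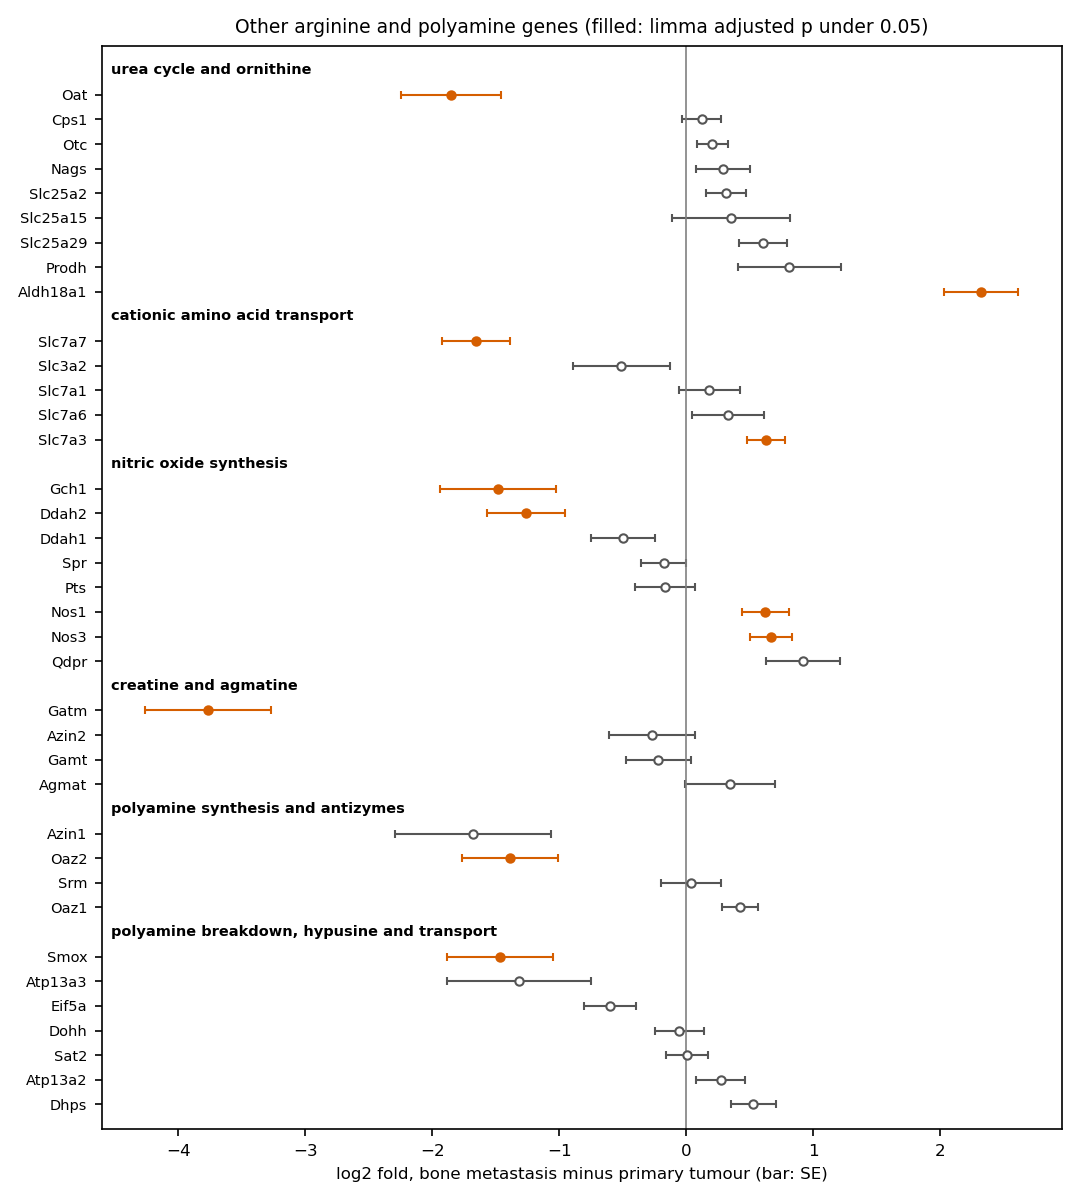
Log2 fold with SE (x axis), bone metastasis minus primary tumour, of 37 other arginine and polyamine genes grouped by role. Filled points passed the limma test over all genes, 7 lower and 4 higher. Gatm at -3.76 and Aldh18a1 at 2.32 mark the ends.

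Arg1 and Nos2 are textbook marks of alternative and classical macrophage activation, so the genes known to accompany each were followed too. Of 14 genes of alternative activation, 6 fell, 2 rose and 6 missed the threshold, with a median log2 fold of -0.80. Over all genes 12.1% were called lower and 9.72% higher, with a median of 0.09. Mrc1, the mannose receptor, changed by -4.21 (SE 0.70), the cytokine Il10 by -3.70 (SE 0.68), the scavenger receptor Msr1 by -3.53 (SE 0.58) and the receptor chain Il4ra by -2.05 (SE 0.24). The 2 other Il4ra probe sets stood at -0.93 and -0.01, and those of Msr1 ran from -2.92 to -2.38. Chil3, a chitinase-like protein that neutrophil precursors also make, rose by 4.31 (SE 1.31, limma adjusted p = 0.0471), with overlapping groups, and Retnla rose by 2.11 (SE 0.60, limma adjusted p = 0.0364). Both rises were lost in most fits without 1 array, 7 of 8 for Chil3 and 5 of 8 for Retnla, and without metastasis replicates 1 and 3 (limma adjusted p = 0.0635 and 0.0754).

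Of 11 measured genes of classical activation, 9 fell, 0 rose (all 11 folds were below 0) and 2 missed the threshold, with a median of -2.52, beside 12.1% lower and 9.72% higher over all genes. Ptgs2, which makes prostaglandins, changed by -3.88 (SE 0.76), the Fc receptor gene Fcgr1 by -3.78 (SE 0.47), the chemokines Cxcl9 and Cxcl10 by -3.17 (SE 0.44) and -2.36 (SE 0.27), and the cytokines Il1b and Tnf by -2.90 (SE 0.64) and -2.80 (SE 0.44). The other probe set stood at -2.80 for Ptgs2, -1.16 for Fcgr1 and -0.62 for Cxcl9, so the size of these falls depends on the probe set. Macrophage markers fell (7 of 9) and granulocyte markers rose (7 of 11) beside both lists, and their part in these counts was not tested. Without metastasis replicates 1 and 3 the counts were 3 lower and 0 higher for alternative and 5 lower and 0 higher for classical activation. This fit had fewer arrays and the share of all genes it called is not given here, so the smaller counts are not a result about these genes.

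**Figure D4:**
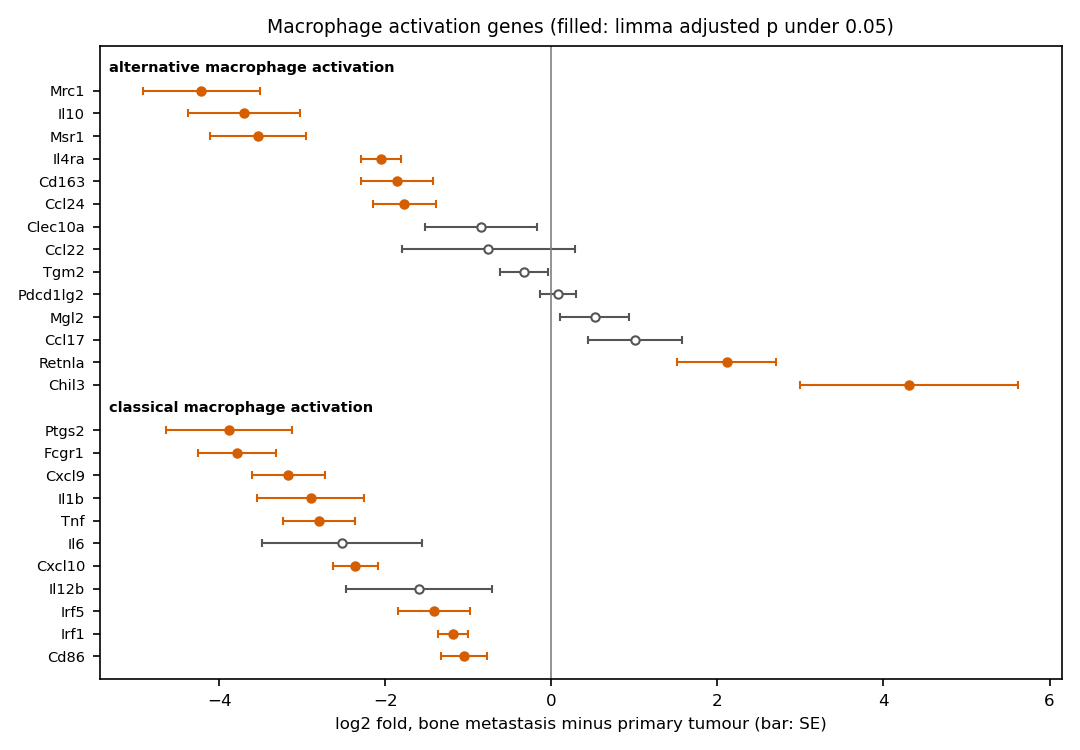
Log2 fold with SE (x axis), bone metastasis minus primary tumour, of genes of alternative and of classical macrophage activation. Filled points passed the limma test over all genes. All 11 classical genes lie below 0, and Chil3 (4.31) and Retnla (2.11) stand out above 0 among the alternative ones.

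Among 7257 other genes with a standard deviation of at least 0.5 over the 8 arrays, those whose signals followed Arg1 most closely by Pearson's r over the 8 arrays were Fbxw4 (0.995), Tnfsf9 (0.992), Igsf8 (0.992), Il1rn (0.991) and Ccr1 (0.990). All were lower in the metastases, with log2 folds from -4.08 for Ccr1 to -0.93 for Fbxw4. The nearest to Nos2 were Snhg10 (0.943), Klhdc8a (0.938), 6430590A07Rik (0.914), Drd4 (0.913) and Acot6 (0.912). These coefficients describe arrays that share the difference between the groups and the control drop, and no p is given for them.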

How the data were processed

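The deposited values are log2 signals per probe set, made by the authors with RMA per the submitters' processing notes, from biotin-labelled RNA amplified in a pair of rounds per the labels' protocols. Which RMA version was used, and on which set of arrays, the sources used here do not say. The scale was taken as log2 from the values. Array medians were 5.16 to 5.17 in primary tumours and 5.23 to 5.42 in metastases, so the arrays were not at 1 common median, and 0 values were missing. Arrays have no read depth, and their number limits the precision. The platform annotation lists a single gene for 34945 of 45101 probe sets, several genes for 932 and no gene for 9160, beside 64 controls. The identifiers of 34741 were found in the GRCm38.p6 table, which updated 0 symbols.

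The groups were compared by limma 3.58.1 (R 4.3.3, lmFit and eBayes, two-sided) without a block, over 18193 genes and over 34945 probe sets, each with Benjamini-Hochberg adjustment. Folds are metastasis minus primary. The fit was tested on simulated data. Controls had exact permutation tests (Python 3.11.15, numpy 2.4.6, pandas 2.3.3, scipy 1.17.1). The samples were paired by the replicate numbers of their titles. The design text gives matched tumours of the same mouse, and the link of number to mouse is inferred. Deviations from the group means correlated at 0.17, 0.01, 0.02 and -0.11 for mice 1 to 4 across genes. Between unlike numbers they ran from -0.13 to 0.21, highest for primary replicate 4 with metastasis replicate 2. These values thus do not single out the pairing used.

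The members and lists were chosen with earlier results of these data known. Named were all members, at most 6 called genes a list by size of fold (further list genes were named after their values were seen), and the 5 genes most like Arg1 and Nos2. Alternatives were the mouse block, 2 scalings, a filter on dim genes, other probe set rules, left-out arrays and mice, and the actin covariate.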

Additional observations from a re-analysis of the deposited data

Results flagged for a closer look

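Single arrays stood far from the other 3 of their group in 5 of 74 groups of 4 tested by Dixon's test of the gap to the nearest array over the whole range, and chance gives about 1 in 20, or 3.7 here. The Slc7a2 probe set 1426008_a_at read 4.69 in primary replicate 1, against 5.63 to 5.78 in the others. Ddah2 read 6.28 in metastasis replicate 3, against 7.496 to 7.59. Nos1 read 6.08 in primary replicate 2, against 5.86 to 5.89. Oaz2 read 9.10 in primary replicate 2, against 9.56 to 9.66. Il4ra read 8.30 in primary replicate 1, against 8.99 to 9.05.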

How the results depend on the processing

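Odc1 and Asl kept their fall and call under every alternative run except the actin covariate. Arg1, picked for its fall, ran from -5.72 to -4.25 without 1 array or mouse. With no overlap between its groups this direction was fixed in advance and adds no support. Its sign with the actin covariate (-1.34, SE 3.20) is not settled. Without 1 array or mouse the members called lower numbered 2 to 5 genes and 3 to 7 probe sets, and 0 were called higher throughout (0 in every such fit). The other pathway genes then gave 3 to 9 lower and 1 to 6 higher, alternative activation genes 3 to 6 lower and 0 to 1 higher, and classical ones 5 to 10 lower. Over all genes 1405 passed without mouse 3 and 1942 without mouse 4, against 3975, but member genes, member probe sets, other pathway and classical genes called lower reached their highest counts without metastasis replicate 2. With the replicate block, which pairs the samples of a number, 5 member genes were lower and 1 other pathway gene was higher. Over all genes 3284 passed with the block, against 3975 without it. Beyond the calls given above the block changed no other call of a named gene. The paired fit of the control drops gave 3.84 for actin and 3.07 for Gapdh (exact p = 0.125 each, the smallest that 4 pairs allow). Without 1 array these drops differed by 3.55 to 4.09 and by 2.78 to 3.27, each with an exact p of 0.0571, the smallest possible there.

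After quantile normalization 4 other pathway genes were lower: Oat, Slc7a7, Gatm and a further gene that was not called lower in the main fit. Scaling to the 75th percentile gave 8 higher, with the median fold of all genes moving from 0.09 to 0.30. Without metastasis replicates 1 and 3, a fit on fewer arrays added after seeing the data, 2 member genes, 3 member probe sets, 3 alternative and 5 classical genes were lower. In that fit 2 other pathway and 0 alternative genes were higher, and the share of all genes it called is not given here. The Odc1 probe set 1437711_x_at turned to 0.15 without metastasis replicates 1 and 3, to 0.13 by the 75th percentile and to 0.046 by quantile normalization. It ran from -0.167 to 0.054 without 1 array or mouse (highest without metastasis replicate 3). The Slc7a2 probe set 1450703_at turned to 0.15 by the 75th percentile, to 0.063 without metastasis replicate 1 and to 0.02 without mouse 1, with -0.176 the lowest of these fits. With the actin covariate 0 genes of any list were called (limma, 2470 of all genes at an unadjusted p under 0.05), and folds turned for Arg2 (2.26, other probe set 0.28), Nos2 (-0.65), Asl (0.076), Slc7a2 (0.64), Sat1 (2.96), Oat (1.34), Gch1 (1.21), Oaz2 (0.80), Smox (0.10), Mrc1 (1.94), Il10 (0.86), Ptgs2 (1.86) and Il1b (0.49). Actin drops do not overlap between the groups, and SEs in this fit were wide, as 2.94 for Arg2, 2.22 for Sat1 and 0.97 for Oat. The turned signs are thus not settled, and the cause was not tested.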

Other observations

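Azin1 and Atp13a3, singled out after their values were seen, did not pass the test but spread widely among metastases. Azin1, an inhibitor of antizymes that spares ornithine decarboxylase, read 11.39, 10.97, 10.89 and 11.06 in primary replicates 1 to 4 and 10.34, 10.63, 9.14 and 7.48 in metastasis replicates 1 to 4. Atp13a3, a P-type ATPase that carries polyamines, read 9.25, 9.57, 9.17 and 9.56 in primary tumours and 9.28, 8.98, 7.56 and 6.45 in metastases. The limma adjusted p was 0.0849 for Azin1 and 0.131 for Atp13a3.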
